A study of Homo sapiens with 9 samples.

Results

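The S100 genes encode small calcium-binding proteins, and 10 of them were followed here across 3 human pancreatic ductal adenocarcinoma cell lines. They were S100A4, S100A6, S100A8, S100A9, S100A10, S100A11, S100A13, S100A14, S100A16 and S100P, taken by symbol from the 42717 genes of the deposited count table. The rule that took them used no measured value, but earlier results of these data were known when they were chosen. S2-007, S2-020 and S2-028 are sublines of the established line SUIT-2, and each was sequenced as 3 strand-specific mRNA libraries. All 9 libraries came from cells kept in DMEM with inactivated fetal bovine serum, and the labels name no treatment, introduced gene or deletion. The study followed maspin, a serpin that it located in the nucleus and cytoplasm of S2-007 and in the cytoplasm alone in S2-028, and that was weak in S2-020. Each line stands for a single subline, so a difference between lines cannot be told apart from any other property in which the sublines differ.

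S100 proteins are built around a pair of EF-hand loops and mostly work as dimers. Binding of calcium opens a hydrophobic face that docks onto target proteins such as annexins and myosin, and some S100 proteins are also released from cells and bind surface receptors such as RAGE and TLR4. Most of the human genes lie together on the long arm of chromosome 1, mixed with genes of skin differentiation, whereas S100P lies on chromosome 4. Several of them, S100P and S100A4 among them, are known for high levels in pancreatic carcinoma.

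The total count was between 60328748 and 86253923 per library. Levels are given as CPM, read counts scaled to library size and normalised by the trimmed mean of M values (TMM), and as mean ± SD over the 3 libraries of a line. Libraries of the same line were more alike (Pearson's r of log2 CPM across genes, 0.976 to 0.981) than libraries of different lines (0.941 to 0.951), and r across genes has no independent replicates. The labels do not say that libraries came from separate cultures, so p-values measure the spread between these libraries, which may be technical. Lines were compared with edgeR's quasi-likelihood test, and a gene was called where the p adjusted by Benjamini-Hochberg was under 0.05 and the lines differed at least 1.5-fold in either direction. Beside the ductal label were set the ductal and simple epithelial markers EPCAM, KRT7, KRT8, KRT18, KRT19 and CDH1. Their summed level was 9774 ± 274 CPM in S2-007, 4870 ± 559 CPM in S2-020 and 16633 ± 1335 CPM in S2-028. Most of it was KRT8, at 4815 CPM in S2-007, 2912 in S2-020 and 8450 in S2-028, and KRT18, at 2016, 1682 and 4841 CPM. The sum therefore says little about the other markers. In S2-020 the simple keratin KRT19 was at 103 ± 12.9 CPM against 2123 ± 40.7 CPM in S2-007, and the adhesion protein CDH1 was at 4.55 ± 0.271 CPM against 54.3 ± 2.43 CPM. In the same lines KRT7 was at 46.6 ± 6.36 against 238 ± 20.4 CPM and EPCAM at 122 ± 2.37 against 527 ± 13.9 CPM.

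The promoters of 4 of the genes are shown first because the genes behind them had different patterns over the lines. Each window is RefSeq sequence of GRCh38.p14, 300 bases long and mostly upstream of the annotated start, written 5′ to 3′ on the strand of the gene. Capitals mark the letters TATAAA (the TATA box) in S100A4 and S100P and GGGCGG (the GC box) in S100A10 and S100A11. S100A4, on the minus strand at chr1:153545757-153546056, was highest in S2-020, and S100P, on the plus strand at chr4:6693628-6693927, was highest in S2-007. S100A10, minus strand, chr1:151993810-151994109, was lower in both S2-020 and S2-028 than in S2-007. Its neighbour S100A11, minus strand, chr1:152036955-152037254, was lower in S2-028 alone.
S100A4: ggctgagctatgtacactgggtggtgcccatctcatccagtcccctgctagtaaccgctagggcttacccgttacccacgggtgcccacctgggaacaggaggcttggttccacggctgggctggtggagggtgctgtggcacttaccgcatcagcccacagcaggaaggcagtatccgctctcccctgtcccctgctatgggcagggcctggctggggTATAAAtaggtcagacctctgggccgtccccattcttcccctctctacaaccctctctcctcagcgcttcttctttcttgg
S100P: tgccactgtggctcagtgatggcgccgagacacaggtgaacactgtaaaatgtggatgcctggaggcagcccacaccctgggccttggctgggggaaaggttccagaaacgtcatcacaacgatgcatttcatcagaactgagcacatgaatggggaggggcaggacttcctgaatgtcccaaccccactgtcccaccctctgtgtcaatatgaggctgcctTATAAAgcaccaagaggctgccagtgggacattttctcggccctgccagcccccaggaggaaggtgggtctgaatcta
S100A10: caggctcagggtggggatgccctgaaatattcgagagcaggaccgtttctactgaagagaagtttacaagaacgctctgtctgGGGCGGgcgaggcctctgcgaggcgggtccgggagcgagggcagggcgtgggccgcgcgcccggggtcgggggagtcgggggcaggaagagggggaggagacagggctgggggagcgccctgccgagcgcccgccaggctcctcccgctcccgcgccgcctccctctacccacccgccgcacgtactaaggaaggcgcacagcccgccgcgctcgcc
S100A11: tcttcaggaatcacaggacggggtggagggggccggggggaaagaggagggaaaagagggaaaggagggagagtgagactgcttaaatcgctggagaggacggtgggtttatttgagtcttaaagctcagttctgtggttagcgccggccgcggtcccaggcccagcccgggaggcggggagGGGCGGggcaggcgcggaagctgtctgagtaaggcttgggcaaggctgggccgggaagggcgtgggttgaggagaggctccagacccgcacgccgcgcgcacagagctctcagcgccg

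The TATAAA match began 31 bases before the start in S100A4 and 28 bases before it in S100P. S100A9 and a window each of S100A8 and S100A13 held the same letters 29 bases before a start. No window of S100A6, S100A10, S100A11, S100A14 or S100A16 held them within these 300 bases, and on either strand TATAAA was present in 11.5% of all 35116 promoter windows. GC boxes were found in a single window each of S100A6, S100A9, S100A10, S100A11, S100A13 and S100A16, and in 45.0% of all windows. S100A8 and S100A13 have 3 windows each and S100A16 has 2, so a count of genes cannot be set against these shares of windows. The AP-1 letters TGACTCA were in no window of the 10 genes and in 4.95% of all windows, searched on both strands. No match of one motif overlapped a match of another. The S100A10 window held 32 CpG pairs, that of S100A6 31 and that of S100A11 22, compared with 8 for S100A4 and 5 each for S100P, S100A9 and S100A14. Both windows of S100A16, also among the abundant members, held few, at 3 and 8, the 3 windows of S100A13 held 11 to 19 and those of S100A8 held 2 each. The median over all windows was 14.

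Of the 10 genes, S100A6, S100A10, S100A11 and S100A16 held most of the reads in every line. Together they took 96.3% of the reads of the 10 genes in S2-007, 91.4% in S2-020 and 95.9% in S2-028. The summed level of the 10 genes was 1978 ± 71.1 CPM in S2-007, 1799 ± 39.4 CPM in S2-020 and 1166 ± 43.6 CPM in S2-028, and S2-028 libraries lay below all others. Per kilobase of the canonical transcript the order was S100A6, S100A11, S100A10 and S100A16 in all 3 lines, with S100A6 at 1344 ± 9.56 CPM per kilobase in S2-007, 1178 ± 34.2 in S2-020 and 996 ± 46.7 in S2-028. S100A11 and S100A10 were close in S2-007, at 796 ± 47.8 and 758 ± 26.9 CPM per kilobase, a difference within their spread. S100A13 stood above S100A4 in S2-007 and S2-028, and S100A4 above S100A13 in S2-020, at 207 ± 13.02 against 101 ± 4.05 CPM per kilobase.

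**Figure D1:**
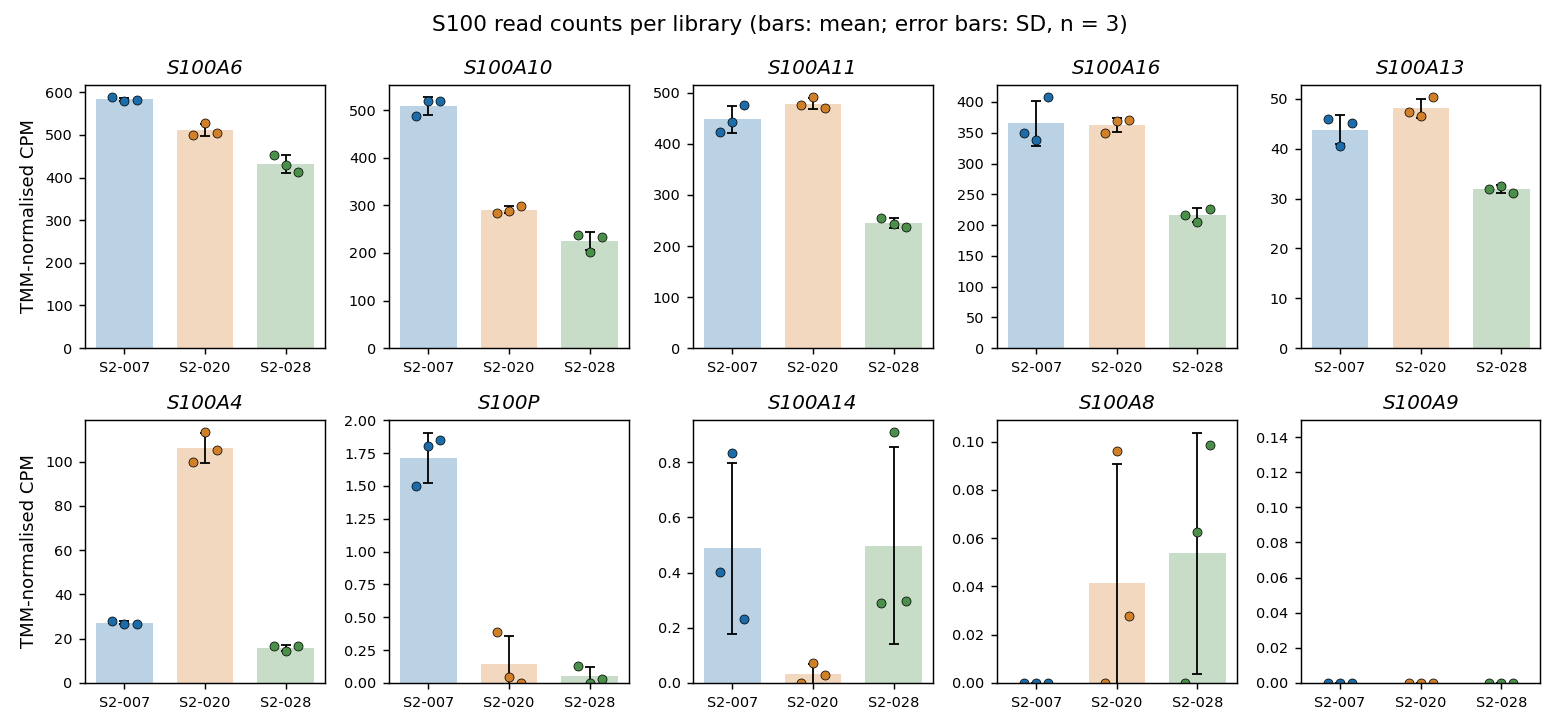
TMM-normalised CPM (vertical axes, linear from 0, each panel with its own scale) of the 10 S100 genes in the 3 libraries of S2-007, S2-020 and S2-028. Points are libraries, bars are means and error bars are SD (n = 3), drawn no lower than 0. S100A4 stands highest in S2-020 (106 CPM), S100P in S2-007 (1.71 CPM), S100A10, S100A11 and S100A16 are lowest in S2-028, and S100A9 is at 0 throughout.

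Comparing S2-028 with S2-007 asked how the line with cytoplasmic maspin differed from the line with nuclear and cytoplasmic maspin. S100A10, S100A11, S100A16, S100A4 and S100P were lower in S2-028 and none of the 10 was called higher. Of the 10 genes, 8 passed the filter on low counts, 5 were called lower and 0 higher, whereas 8.19% of all 26371 tested genes were called lower and 10.2% higher. S100P passed the filter only through its S2-007 libraries (112, 134 and 136 counts, against 8, 0 and 2 in S2-028). Its direction was therefore fixed in advance, yet it is included in these counts and in the median. No member had an unadjusted p under 0.05 in the higher direction, and DESeq2 also called 0 higher. Libraries of the compared lines did not overlap for 7 of the 8 genes, as they did not for 43.3% of all tested genes. The median log2 fold change was -0.76 over the 8 genes and 0.00196 over all tested genes. All 3 comparisons share libraries, so their values are set side by side and are not independent.

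Comparing S2-020 with S2-007, 1 gene, S100A4, was called higher and 3, S100A10, S100P and S100A14, were called lower of the 8 tested. S100P (28, 4 and 0 counts in S2-020) and S100A14 (0, 6 and 2) passed the filter only through S2-007. Both could therefore only come out lower there. Of all 26657 tested genes 9.57% were called higher and 12.1% lower. S100A11, S100A13 and S100A16 did not pass the test, and S100A6 differed by less than the fold threshold. The libraries did not overlap for 6 of the 8 genes, compared with 48.5% of all tested genes, and the median log2 fold change was -0.13 against -0.0534 over all of them. Comparing S2-028 with S2-020, 7 genes were tested, 1 was called higher (S100A14) and 4 lower (S100A4, S100A11, S100A16 and S100A13). S100A14 passed the filter there only through S2-028, so it could only come out higher. The background was 12.1% called higher and 10.1% called lower of 26031 genes. All 7 had libraries that did not overlap, as 48.9% of the tested genes had, and the median was -0.59 against 0.0245. Across the 3 comparisons 7 of the 8 members tested at least once were called at least once, compared with 33.4% of the 27606 genes tested at least once. Of the members called, S100P and S100A14 were called only where they passed the filter through the line in which they were higher. S100A6 was tested and never called, and S100A8 and S100A9 were never tested.

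**Figure D2:**
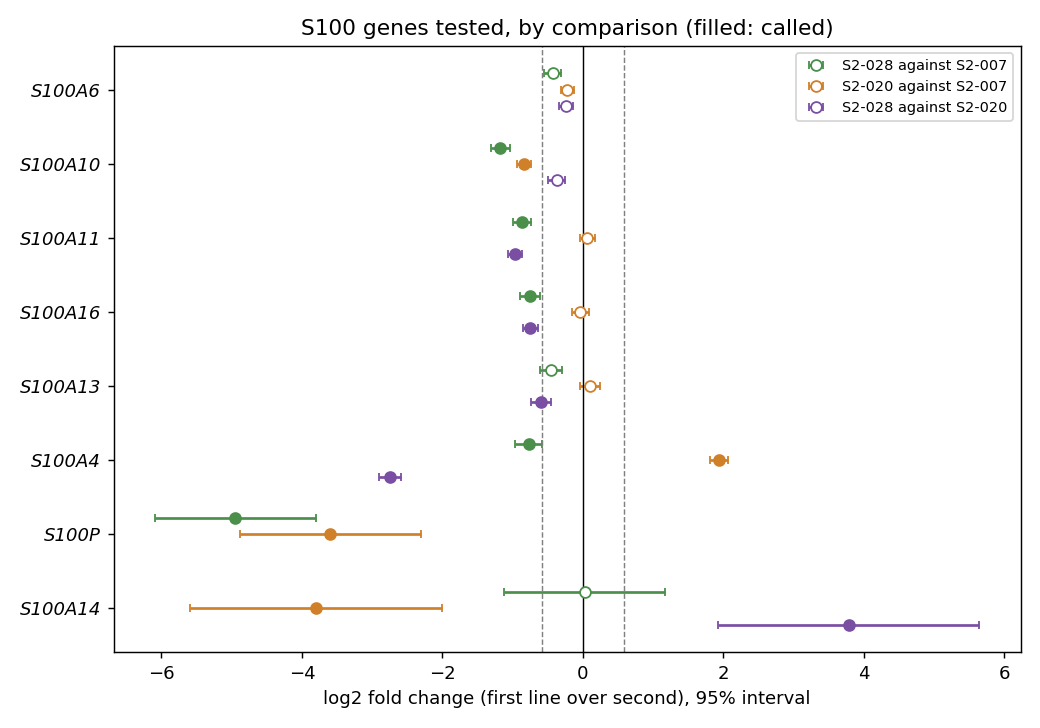
Log2 fold change (horizontal axis, the first line over the second) of the S100 genes tested in each comparison, with 95% intervals. The comparisons with S2-007 show 8 genes and S2-028 against S2-020 shows 7, without S100P. Filled points were called, dashed lines mark a 1.5-fold change and the solid line marks no change. S100A4 lies on opposite sides of 0 for S2-020 (1.94) and S2-028 (-0.77) against S2-007, and the intervals of S100A14 and S100P are the widest.

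S100A10, also named p11, has lost calcium binding in its EF hands and joins annexin A2 in a complex at the cell membrane that assembles plasminogen. It was at 488, 519 and 519 CPM in the 3 S2-007 libraries, 285, 289 and 299 CPM in S2-020 and 237, 203 and 233 CPM in S2-028. The 3 lines did not overlap. S2-020 was lower than S2-007 by a log2 fold change of -0.84 (SE 0.0479, adjusted p = 1.64e-11), and S2-028 by -1.18 (SE 0.0653, adjusted p = 4.79e-12). S2-028 against S2-020 gave -0.37 (SE 0.0582, adjusted p = 2.58e-05), which was under the fold threshold and so was not a call.

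S100A11, which partners annexin A1 and other annexins in membrane contacts, had a step at S2-028. Its levels were 424, 443 and 477 CPM in S2-007, 476, 491 and 469.6 CPM in S2-020 and 256, 243 and 237 CPM in S2-028. The S2-028 libraries lay below the other 6 and S2-007 and S2-020 overlapped. The log2 fold change was -0.87 (SE 0.0592, adjusted p = 1.33e-10) for S2-028 against S2-007 and -0.97 (SE 0.0488, adjusted p = 4.1e-12) against S2-020. For S2-020 against S2-007 it was 0.065 with a 95% interval of -0.037 to 0.17 (adjusted p = 0.335). Of the 31-base words of S100A11 transcripts, 8.82% also occur in other genes, S100A11P1 and S100A11P2 among them, so a part of its reads is uncertain.

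S100A16, a broadly expressed member of the family, had almost the same arrangement. It was at 350.4, 337 and 407 CPM in S2-007, 349, 369 and 369.9 CPM in S2-020 and 217, 205 and 227 CPM in S2-028, and again only the S2-028 libraries stood apart. S2-028 was lower by a log2 fold change of -0.75 against S2-007 (SE 0.0671, adjusted p = 9.36e-09) and of -0.75 against S2-020 (SE 0.0519, adjusted p = 5.07e-10). S2-020 against S2-007 gave -0.039 (95% interval -0.16 to 0.083, adjusted p = 0.665). S100A11 and S100A16 were the closest pair among the 8 tested genes, with a root mean squared difference of 0.0898 between their centred log2 levels over the 3 lines, as a description of 3 points.

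S100A13, which takes part in the release of FGF1 and IL1A outside the classical secretory route, was at 45.9, 40.6 and 45.1 CPM in S2-007, 47.3, 46.7 and 50.3 CPM in S2-020 and 32.0, 32.6 and 31.1 CPM in S2-028. The S2-028 libraries lay below the other 6. The log2 fold change was -0.59 against S2-020 (SE 0.0684, adjusted p = 6.63e-07), just past the fold threshold, and -0.46 against S2-007 (SE 0.0750, adjusted p = 4.43e-05), short of it. The call against S2-020 was lost with library size scaling alone (-0.51), without S2-020 replicate 3 (-0.56), without S2-028 replicate 3 (-0.56) and in a test against a 1.5-fold change (adjusted p = 0.799). S100A13 shares 43.6% of its 31-base words with 1 other annotated gene. Of its exon bases, 24.2% overlap another gene on the same strand. A further overlap, with S100A1 or another gene on the opposite strand, covers 10.6% of them, so the level of S100A13 is uncertain.

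S100A6, or calcyclin, binds annexins and the calcyclin-binding protein CACYBP, and had the most reads of the 10 genes. Its levels were 588, 580.3 and 582 CPM in S2-007, 501, 528 and 505 CPM in S2-020 and 454, 429 and 414 CPM in S2-028. The 3 lines did not overlap, in the order S2-007, S2-020, S2-028. The log2 fold changes were small, at -0.22 (SE 0.0457, adjusted p = 0.000513) for S2-020 against S2-007, -0.43 (SE 0.0565, adjusted p = 2.54e-06) for S2-028 against S2-007 and -0.24 (SE 0.0487, adjusted p = 0.000414) for S2-028 against S2-020, all under the fold threshold. With a range of 0.43 between its highest and lowest line means on the log2 scale, S100A6 varied least of the 8 tested genes.

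S100A4, known as metastasin, binds the heavy chain of non-muscle myosin IIA, loosens its filaments and is linked to cell motility. It was at 28.0, 26.7 and 26.7 CPM in S2-007, 99.99, 113 and 105 CPM in S2-020 and 16.5, 14.4 and 16.6 CPM in S2-028. The 3 lines did not overlap and S100A4 was the only 1 of the 10 genes called in all 3 comparisons. S2-020 was 3.82-fold higher than S2-007 (log2 fold change 1.94, SE 0.0627, adjusted p = 2.24e-15). S2-028 was lower than S2-007 by a log2 fold change of -0.77 (SE 0.0927, adjusted p = 7.5e-07) and lower than S2-020 by -2.74 (SE 0.0750, adjusted p = 3.89e-16). S100A4 made up 1.37% of the reads of the 10 genes in S2-007, 5.90% of them in S2-020 and 1.36% of them in S2-028. In a test against a 1.5-fold change, the adjusted p for S2-028 against S2-007 was 0.0621.

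S100P, which binds ezrin inside the cell and is a ligand of the receptor RAGE, was detected at low levels and mainly in S2-007. The 3 S2-007 libraries held 112, 134 and 136 counts, those of S2-020 held 28, 4 and 0 counts and those of S2-028 held 8, 0 and 2 counts. The means were 1.71 ± 0.190, 0.146 ± 0.213 and 0.0539 ± 0.0670 CPM, and each S2-007 library was above the other 6. The log2 fold change was -3.59 for S2-020 (SE 0.616, adjusted p = 7.11e-05) and -4.95 for S2-028 (SE 0.549, adjusted p = 2.43e-07) against S2-007. It rested on few counts, and was -6.01 without S2-020 replicate 1 and -6.59 without S2-028 replicate 1. S2-028 and S2-020 were not compared because S100P did not pass the filter on low counts there.

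S100A14, an epithelial member of the family, was near the limit of detection. Its counts were 30, 62 and 17 in S2-007, 0, 6 and 2 in S2-020 and 18, 58 and 18 in S2-028. S2-020 lay below all libraries of the other lines, which overlapped with each other. The log2 fold change was -3.80 for S2-020 against S2-007 (SE 0.857, adjusted p = 0.00117) and 3.79 for S2-028 against S2-020 (SE 0.885, adjusted p = 0.00163). For S2-028 against S2-007 it was 0.026, with a 95% interval from -1.12 to 1.17 (adjusted p = 0.981). The first value was -5.00 without S2-020 replicate 2 and -3.16 without S2-007 replicate 2, and the second was 4.98 without S2-020 replicate 2 and 3.05 without S2-028 replicate 2.

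S100A8 and S100A9, which pair as calprotectin in neutrophils and monocytes, were at or near 0. S100A9 had 0 counts in all 9 libraries, which allows at most 3 counts per library, or between 0.0361 and 0.0492 CPM, for counting error only. Low counts were mostly even in these data, so counting error may be larger and this bound too low. S100A8 had 0 counts in the S2-007 libraries, 0, 8 and 2 in S2-020 and 0, 4 and 6 in S2-028, and did not pass the filter. Of the 10 myeloid and leukocyte markers, PTPRC, MPO and ELANE had at most 26, 8 and 6 counts per library, whereas LYZ had 21577 to 27423 and CD68 2865 to 3181 counts in the S2-007 libraries, in which S100A8 and S100A9 had 0. ITGAM reached 216 counts and ITGAX 120 counts, both in S2-020.

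The other S100 genes and the partners were described from lists. For the counts called below, the share of all tested genes called in either direction was 18.4% in S2-028 against S2-007. It was 21.6% in S2-020 against S2-007 and 22.2% in S2-028 against S2-020. Of the 10 other S100 genes in the table, 6 were tested in each comparison. Against S2-007, 2 were called in S2-020, both higher (S100A2 and S100A3), and 1 in S2-028, lower (S100A2). Against S2-020, the same 2 genes were called lower in S2-028. S100A2, a regulator linked to p53 in squamous cells, was at 4.79 ± 0.513 CPM in S2-007, 9.67 ± 0.537 in S2-020 and 2.23 ± 0.386 in S2-028. S100A3 was at 1.25 ± 0.134, 2.96 ± 0.379 and 1.17 ± 0.369 CPM. As a list they had a median of -0.36 for S2-028 and 0.54 for S2-020 on the log2 scale, both against S2-007.

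S100A4, S100A3 and S100A2 are neighbours on chromosome 1. S100A4 lies at chr1:153543621-153545806 in GRCh38.p14, and all 3 were higher in S2-020 than in S2-007. Their log2 fold changes were 1.94, 1.21 (SE 0.214, adjusted p = 0.000102) and 0.98 (SE 0.130, adjusted p = 3.25e-06), and the uncharacterised transcript LOC101928034 that overlaps S100A4 and S100A3 gave 1.79 (adjusted p = 0.00809), a call lost without S2-020 replicate 3 (1.59). Of the members nearby, S100A6, S100A16 and S100A13 were not called in that comparison, and S100A14, between S100A16 and S100A13, was called lower (-3.80). S100A10 (chr1:151982915-151993859) and S100A11 (chr1:152032506-152037004) lie at the other end of the S100 span, and S100A16, S100A14 and S100A13 lie between 153606883 and 153634361. The span from S100A10 to S100A13 covers 1651447 bases and holds 16 S100 genes.

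The span also holds genes outside the S100 family. Of those tested, 2 of 18 were called in S2-028 against S2-007, both higher (FLG and PGLYRP3, median -0.046), and 2 higher and 3 lower of 18 in S2-020 against S2-007 (median -0.16). In S2-028 against S2-020, 4 of 16 were higher and 1 lower (median 0.052). Of the 7 genes that encode fused S100 proteins, in which an S100 domain heads a long repeat protein of skin, 5 were tested against S2-007, with 1 called higher in S2-028 and 2 called lower in S2-020. FLG, which encodes filaggrin, the protein that bundles keratin in skin, was lower in S2-020 than in S2-007 by a log2 fold change of -3.02 (adjusted p = 6.84e-08) and higher in S2-028 by 1.00 (adjusted p = 7.52e-05). HRNR, a related skin protein, gave -2.53 (adjusted p = 0.0168) in S2-020 and 1.07 (adjusted p = 0.0537) in S2-028. The first of these was no longer called without S2-007 replicate 1 (-2.06) or replicate 3 (-2.51), or in the test against a 1.5-fold change (adjusted p = 0.0624). The second was called without S2-007 replicate 1 (1.53), and also with no filter (adjusted p = 0.0362), with at least 10 counts in every library (0.036) and in the likelihood ratio test (0.0345). Of the 50 tested genes flanking the span, 1 was higher and 4 lower in S2-028 against S2-007, 7 were higher and 9 lower in S2-020 against S2-007, and 4 were higher and 5 lower in S2-028 against S2-020. Of the 50 nearest to S100P, 1 was higher and 6 lower in S2-028 against S2-007, and 3 were higher and 4 lower in S2-020 against S2-007.

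**Figure D3:**
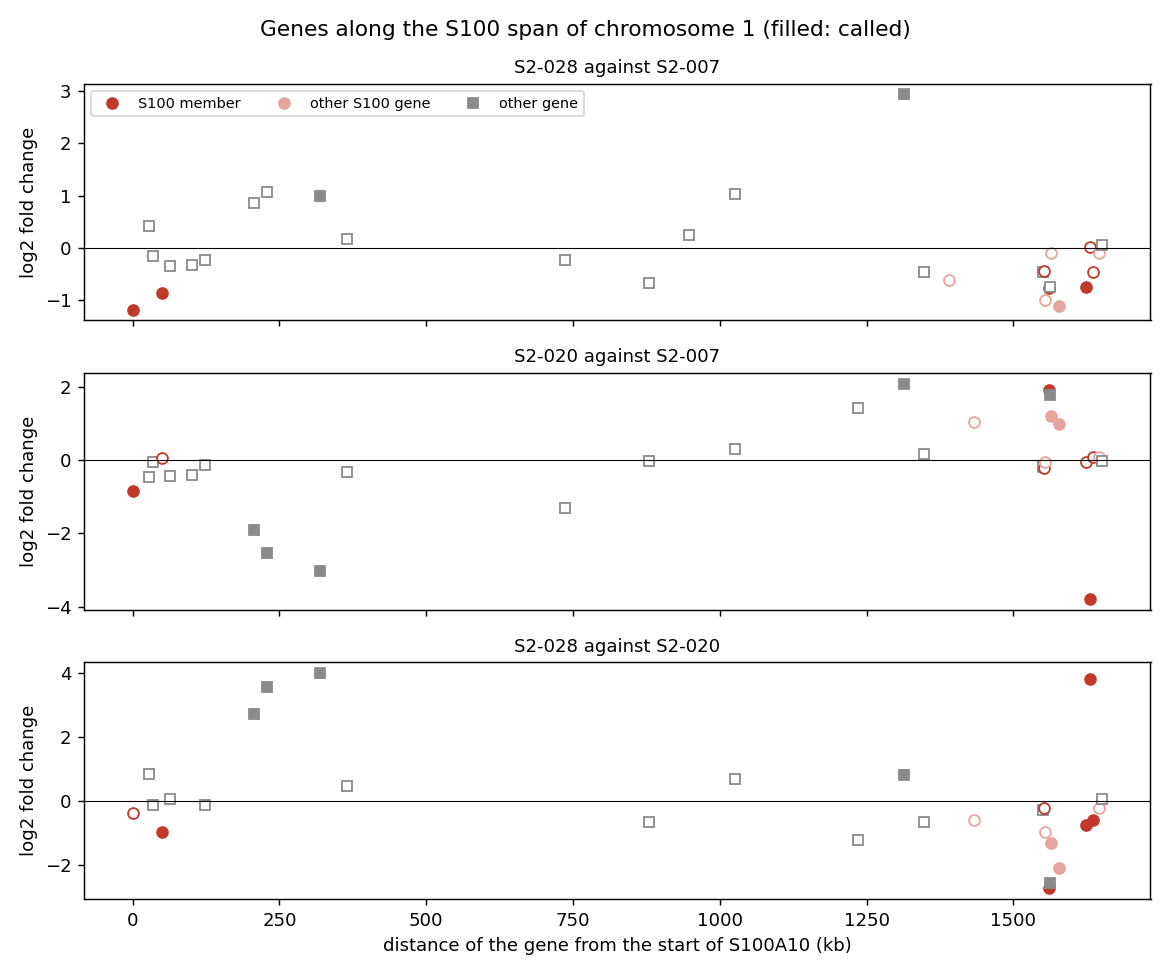
Log2 fold change (vertical axis) of the tested genes against their distance from the start of S100A10 in kb (horizontal axis), for S2-028 against S2-007, S2-020 against S2-007 and S2-028 against S2-020. Red circles are the S100 genes described here, pale circles other S100 genes and grey squares other genes, and filled symbols were called. The grey squares lie on both sides of 0, and S100A4, S100A3 and S100A2 lie together above 0 in S2-020 against S2-007.

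Among the 6 receptors for released S100 proteins, all were tested. Against S2-007, 1 was higher and 1 lower in each of S2-028 and S2-020, and against S2-020 1 was higher and 1 lower in S2-028. TLR4, a receptor of S100A8 and S100A9, was lower than in S2-007 in both lines, at 74.9 ± 3.15 CPM in S2-007, 39.5 ± 1.58 in S2-020 and 30.8 ± 1.51 in S2-028. BSG, or basigin, was at 387 ± 12.3, 640 ± 8.26 and 297 ± 7.88 CPM, highest in S2-020. ALCAM was at 220 ± 6.84, 225 ± 8.52 and 421 ± 8.93 CPM, highest in S2-028. AGER, which encodes RAGE, was not called in any comparison and stood at 2.61, 2.09 and 2.16 CPM.

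Of the 17 intracellular partners, all were tested, with 1 higher and 2 lower in S2-028 against S2-007, 2 higher and 2 lower in S2-020 against S2-007, and 2 higher and 2 lower in S2-028 against S2-020. Their medians were 0.064, 0.19 and 0.012. ANXA2, the partner of S100A10, was at 2467 ± 63.0 CPM in S2-007, 1007 ± 17.9 in S2-020 and 1995 ± 261 in S2-028, and was lower in S2-020 than in S2-007 by a log2 fold change of -1.32 (SE 0.0413, adjusted p = 1.25e-15). It gave -0.30 in S2-028 (adjusted p = 0.00182), under the threshold, where S100A10 was at its lowest. Per 100 reads of ANXA2 there were 20.6 ± 0.515 reads of S100A10 in S2-007, 28.9 ± 1.09 in S2-020 and 11.3 ± 0.592 in S2-028, and the 3 lines did not overlap. ANXA1, the partner of S100A11, was at 88.3 ± 21.9, 151 ± 3.91 and 125.8 ± 4.94 CPM, and was chosen after its values were seen. Per 100 reads of ANXA1 there were 524 ± 99.6, 316 ± 15.3 and 195 ± 7.37 reads of S100A11, again without overlap. These ratios compare reads, not molecules, since transcript lengths differ.

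**Figure D4:**
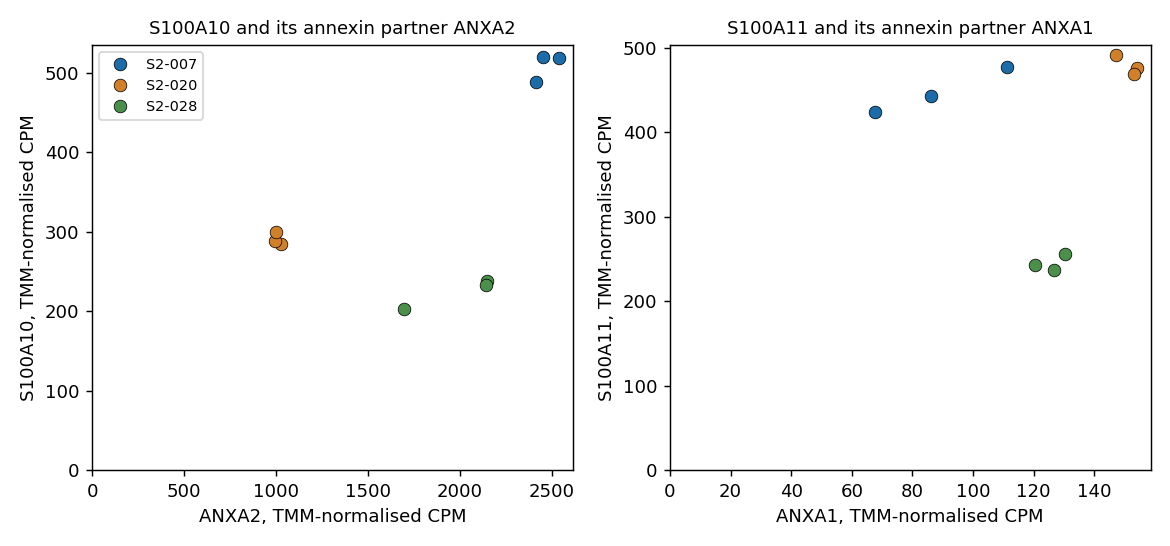
TMM-normalised CPM of S100A10 against ANXA2 (left) and of S100A11 against ANXA1 (right), both axes linear from 0, with 1 point per library of S2-007, S2-020 and S2-028. In the left panel S2-020 is low in ANXA2 (1007 CPM), while S2-028 is lowest in S100A10 (224 CPM) with ANXA2 at 1995 CPM.

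ANXA6, an annexin bound by S100A6, had the smallest adjusted p of the partner list. It was at 11.3 ± 0.896 CPM in S2-007, 110 ± 1.72 CPM in S2-020 and 2.68 ± 0.293 CPM in S2-028, the same order of lines as S100A4. MYH10, a non-muscle myosin heavy chain, was at 65.0 ± 6.17, 54.3 ± 3.50 and 110 ± 6.62 CPM, and was higher in S2-028 than in S2-007 (log2 fold change 0.76, adjusted p = 1.53e-08). MYH9, the heavy chain that S100A4 is known to bind and which was chosen after its values were seen, was not called in any comparison, at 1222 ± 69.1, 958 ± 3.39 and 1085 ± 71.6 CPM. Reads of S100A4 per 100 of MYH9 were 2.23 ± 0.173, 11.1 ± 0.682 and 1.46 ± 0.0872. Of the 11 other small EF-hand genes, 2 were called in S2-028 against S2-007 and 3 in S2-020 against S2-007, all lower, with medians of -0.33 and -0.23. Of all tested genes, 8.19% and 12.1% were called lower in these comparisons. In S2-028 against S2-020, 1 of the 10 tested was called higher and 0 lower, with a median of 0.018. CIB1, a calcium- and integrin-binding protein, was lower in both lines, at 137 ± 7.13 CPM in S2-007, 60.8 ± 1.16 in S2-020 and 70.9 ± 5.35 in S2-028.

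The genes with the nearest pattern to the 3 most variable members were found among 10519 genes by the root mean squared difference of centred log2 levels over the 3 lines. For S100P they were KCNQ3, a potassium channel (0.166), UGT1A10, a glucuronosyltransferase (0.201), and CAPN5, a calpain (0.325). KCNQ3 stood at 123 CPM in S2-007, 6.21 in S2-020 and 5.601 in S2-028. UGT1A10 shares exons with the other UGT1A genes, which makes its level uncertain. For S100A14 they were FAM110C (0.114), the gap junction protein GJB2 (0.120) and the adhesion protein NECTIN1 (0.130), the last at 141, 17.2 and 119 CPM. For S100A4 they included ARID3A, a DNA-binding protein (0.0470), and the growth factor FGF2 (0.130), the latter at 23.6, 85.6 and 15.9 CPM.

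Markers of other cell types moved with some of these results, and their part in them was not tested. In bulk RNA, fewer cells of a type and less RNA per cell cannot be told apart. Summed over the 10 myeloid markers the level was 340 to 413 CPM in S2-007, 12.8 to 16.01 in S2-020 and 14.9 to 16.05 in S2-028, and S100P was highest in the same line. LYZ, which encodes lysozyme and is also made by epithelia, accounted for most of it in S2-007 (332 ± 37.8 CPM), whereas CD68 was the largest part in S2-020 (7.84 ± 0.641 CPM) and S2-028 (10.4 ± 0.849 CPM). Against S2-007, LYZ, CD14 and CD68 were called lower in both lines, and ITGAM was called higher in S2-020 (log2 fold change 1.96, adjusted p = 9.83e-05). PTPRC, MPO and ELANE were near 0. Among the 6 ductal markers, 5 were called lower in S2-020 than in S2-007, where S100A14 was lower and S100A4 higher, and 4 were called higher in S2-028 than in S2-007. EPCAM and KRT19 were not called in S2-028 against S2-007 and went the other way, with log2 fold changes of -0.32 and -0.13. Of 10 squamous markers 5 were tested in each comparison, and 1 was higher and 1 lower in S2-020 against S2-007. KRT5 was the higher marker, at 0.0723 ± 0.103, 26.7 ± 3.38 and 0.130 ± 0.118 CPM. KRT16 was the lower marker, on few counts, at 0.557 ± 0.125, 0.0891 ± 0.0203 and 0.321 ± 0.0506 CPM. In that comparison KRT10 gave a log2 fold change of -0.50, under the fold threshold, and KRT14 and TP63 were not called. Acinar and endocrine markers summed to 0.722 to 1.85 CPM and fibroblast and endothelial markers to 8.89 to 12.8 CPM over the 9 libraries.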

How the data were processed

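RNA of 3 sublines was measured in 3 libraries each, and every library was assigned to its line by its label. Per the labels, the authors' processing named Trimmomatic 0.39, BWA 0.7.17, SAMtools 1.12 and edgeR 3.16.5, with GRCh38.p14. The authors deposited whole-number counts of reads mapped to each of 42717 genes. The deposited table also holds 18 columns of normalized signal, which were not used here, and 2 lines that name no gene and were left out. The counting tool, and how reads on several genes, on the opposite strand or of 1 pair were counted, are not given in the sources used here. Of 98117 values between 1 and 20 counts, 75.3% were even, so the number of fragments may be lower than the count and counting error larger. Columns of the authors' own comparisons were not used.

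The counts were tested with edgeR 4.0.16 (R 4.3.3). Low genes were removed with filterByExpr (minimum count 10, minimum total 15), and the rest were normalized by TMM and tested with the quasi-likelihood test on the 6 libraries of the lines compared, with Benjamini-Hochberg adjustment over all genes tested. Printed CPM use TMM factors of all 9 libraries and their logarithms a prior count of 2, so their ratios can differ slightly from the fold changes. Floors of 3 counts cover counting error only. Depth was 60328748 to 86253923 counts per library. The chi-square statistic per gene between libraries of a line was at least 8.41, so no library was counted as a copy of another. Promoter windows were matched by gene identifier, and all 10 genes had a window. Lengths per kilobase are of canonical GENCODE transcripts, and the share of 31-base words in other genes was computed from the same annotation. On counts simulated for S2-028 against S2-007 (25992 genes, 200 changed), 88 of 100 genes changed 2-fold and 100 of 100 changed 4-fold were recovered, with 5 false calls. The changed genes were drawn only from genes with ample counts, and every gene was given the same fixed spread. The recovery therefore does not cover genes with few counts, such as S100P, S100A14 and HRNR.

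The members and lists were chosen with earlier results of these data known. Beside the members, at most 3 called genes of each list with the smallest adjusted p, and the 3 genes nearest in pattern to the 3 members with the widest range, could be named. A result for 1 further gene is not reported here. FLG-AS1, PGLYRP3, LOC101928034, MYH9, ANXA1, AGER and single markers outside that rule were chosen after their values were seen. Alternatives were DESeq2 1.42.0 size factors and test, library size alone, no filter, at least 10 counts in every library, the likelihood ratio test, a test against a 1.5-fold change, all 9 libraries in one fit, a replicate block and each library left out.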

Additional observations from a re-analysis of the deposited data

How the results depend on the processing

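Over all alternatives, 332 values of single members kept their direction and side of the threshold, 5 fell short of a call and 4 changed sign, and of those of other named genes 1725 kept both, 43 fell short of a call, 18 became calls and 9 changed sign. The test against a 1.5-fold change called 2977 genes in S2-028 against S2-007 instead of 4858. It called 3639 in S2-020 against S2-007 instead of 5769 and 3638 in S2-028 against S2-020 instead of 5788. That test asks for evidence that the change exceeds 1.5-fold, whereas the reported call asked only that the estimate reach 1.5-fold. With at least 10 counts in every library, 1 member was called lower in S2-020 against S2-007 instead of 3, and 0 were called higher in S2-028 against S2-020 instead of 1, because S100A14 and S100P were then not tested. Leaving out single libraries gave log2 fold changes from -0.74 to 0.66 for S100A14, -0.38 to 0.042 for S100A3 and -0.026 to 0.22 for FAM110C in S2-028 against S2-007. It gave -0.077 to 0.068 for S100A16 and -0.019 to 0.049 for ALCAM in S2-020 against S2-007, and -0.36 to 0.012 for KCNQ3 and -0.16 to 0.24 for AGER in S2-028 against S2-020. ALCAM in S2-020 against S2-007 was also -0.047 with library size alone and -0.0062 with at least 10 counts in every library. None of these was called in the reported fit, and the cause was not tested.

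The replicate numbers did not pair the libraries (correlations of same-numbered deviations from -0.0219 to 0.0140), and the replicate block called 4865, 5650 and 5716 genes in the 3 comparisons, with the same number of members in each direction. With the block HRNR was called in S2-028 against S2-007 (1.18, adjusted p = 0.0402). S100P, S100A14, S100A8 and S100A9 had so few counts that depth limits their values.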
